A study of Mus musculus with 4 samples.

Results

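Solute carriers are membrane proteins that move sugars, amino acids, nucleotides, metals and other ions across the plasma membrane, or across the membranes of lysosomes, the Golgi apparatus and mitochondria. Myeloid cells use them to feed glycolysis, to take up cystine for glutathione, to handle zinc and copper in host defence and to supply mitochondria with phosphate, adenine nucleotides and iron. The genes described here are the 145 protein-coding genes whose symbol begins with Slc and whose mean over the 4 libraries was at least 1 FPKM, leaving out Slc4a1, Slc40a1, Slc11a1 and Slc11a2. FPKM is the number of reads per kilobase of exon and per fixed number of counted reads, so that levels of different genes are compared per length. The files listed 317 protein-coding genes of this name among 24706 genes, and 168 of these fell below the threshold while 4 were left out by name. Because members were chosen by their level, the level itself is given below only as a description. Slc7a11, Slc15a2, Slc38a6 and Slco3a1 had a wt mean below 1 FPKM and passed through the cko libraries. Slc19a1 and Slc35g2 had a cko mean below 1 FPKM and passed through the wt libraries. The direction of these genes is therefore not independent of the choice of members. Just inside the threshold were Slc15a2 at 1.01 FPKM, Slc2a4 at 1.11 FPKM and Slco3a1 at 1.13 FPKM, and just outside it were Slc25a40 at 0.980 FPKM, Slc8a1 at 0.958 FPKM and Slc20a2 at 0.946 FPKM.

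The samples were 4 libraries labelled as mouse myeloid cells, 2 of genotype wt and 2 of genotype cko, which the study describes as PD-1f/f mice and PD-1f/f; LysM-Cre mice. Both groups carry the floxed Pdcd1 allele (the gene of the immune inhibitory receptor PD-1), and the cko mice also carry Cre recombinase under the LysM promoter, which is active in myeloid cells. The design text names isolated myeloid cells of the fetal liver, the study's results name sorted CD11b+ cells at postnatal day 3, and its methods name RNA of fetal livers at postnatal day 2 from wild-type and PD-1 knockout mice, and these accounts could not be reconciled here. No source says whether the libraries of a group came from separate animals, so p-values measure only the spread between these libraries.

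Pdcd1 stood at 28.5 and 34.7 FPKM in the wt libraries and at 17.1 and 21.4 FPKM in the cko libraries, below wt in both but not absent. The libraries held 17691504 to 22212407 counted reads, recovered from the FPKM steps. Of the labelled cell type's defining genes, Ptprc, Itgam, Spi1 and Tyrobp were above 45 FPKM in every library, whereas Cebpa lay between 0.425 and 1.09 FPKM. Lyz2, the lysozyme gene whose promoter is called LysM, stood at 31306 and 32147 FPKM in wt and at 10422 and 8127 FPKM in cko, a log2 fold change of -1.79 (adjusted p = 0.183, limma). The summed FPKM of 14 erythroid markers was 3720 and 2340 in wt and 1417 and 1516 in cko, that of 15 hepatocyte markers 93.4 and 159 in wt and 68.7 and 82.0 in cko, and that of 12 neutrophil markers 160552 and 136094 in wt and 110131 and 91546 in cko. The neutrophil sum is weighted to its most abundant genes, Ngp, S100a9, S100a8 and Camp. At an unadjusted p under 0.05 (limma), 4 of the 12 were lower and 4 higher (Elane, Prtn3, Cxcr2 and Csf3r). The shares of all genes were 4.95% and 11.4%. The 10 most abundant genes held 46.6% and 42.3% of all FPKM in wt and 33.1% and 29.4% in cko. Transcripts of the Y chromosome were found in wt library 2 and Xist in the other 3 libraries, so that X-linked members such as Slc38a5, Slc25a5, Slc25a14, Slc35a2 and Slc10a3 are compared between groups of unequal sex. In a bulk sample, fewer cells of a type and less RNA per cell cannot be told apart.

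Of the 145 members, 30 belonged to the mitochondrial Slc25 family, 25 carried amino acids or peptides, 18 belonged to the Slc35 family, 16 carried metals, 12 inorganic ions, 11 organic ions and lipids, 10 sugars, 8 vitamins, choline or heme, 5 nucleosides, 3 monocarboxylates and 3 other substrates. The remaining 4 (Slc9a3r1, Slc9a3r2, Slc7a6os and Slc4a1ap) bear the symbol but encode no carrier. Classes follow gene families, so all Slc35 genes form the nucleotide sugar class, whatever substrate each carries. By mean level, 11 members were above 50 FPKM, 37 lay between 10 and 50 FPKM, 77 between 2 and 10 FPKM and 20 below 2 FPKM, with a median of 5.55 FPKM. The highest were Slc9a3r1, a scaffold that binds sodium-proton exchangers, then the glucose carrier Slc2a3, the lactate exporter Slc16a3, the adenine nucleotide carrier Slc25a5 and the oxoglutarate carrier Slc25a11. Every member rested on at least 15 reads in each library, and the median member on 457 to 519 reads. The arginine carrier Slc7a2 and the zinc carriers Slc39a14 and Slc30a1, which are well studied in myeloid cells, were below the threshold, at means of 0.182, 0.0945 and 0.534 FPKM.

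The promoters of Slc2a6, Slc7a11 and Slc20a1 are shown because these genes had, in turn, the largest log2 fold change of FPKM + 1, the largest difference between the cko libraries and the smallest unadjusted p among the members. With pseudocounts of 0.1 and 0.01 and with voom, Slc7a11 had a larger log2 fold change than Slc2a6. Each run holds the 250 bases before the annotated start in RefSeq (GRCm38.p6), at chr2:27027999-27028248 on the minus strand for Slc2a6, chr3:50443614-50443863 on the minus strand for Slc7a11 and chr2:129198523-129198772 on the plus strand for Slc20a1, and capitals mark matches to the motifs searched.
Slc2a6: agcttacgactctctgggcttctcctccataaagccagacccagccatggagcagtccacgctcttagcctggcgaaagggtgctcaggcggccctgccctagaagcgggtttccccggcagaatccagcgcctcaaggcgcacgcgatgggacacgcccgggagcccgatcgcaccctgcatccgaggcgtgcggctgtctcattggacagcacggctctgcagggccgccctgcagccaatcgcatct
Slc7a11: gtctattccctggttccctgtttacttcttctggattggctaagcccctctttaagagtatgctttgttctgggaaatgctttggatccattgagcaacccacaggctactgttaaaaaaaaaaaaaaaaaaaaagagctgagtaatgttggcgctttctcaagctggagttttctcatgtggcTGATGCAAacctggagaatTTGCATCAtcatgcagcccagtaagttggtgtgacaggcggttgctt
Slc20a1: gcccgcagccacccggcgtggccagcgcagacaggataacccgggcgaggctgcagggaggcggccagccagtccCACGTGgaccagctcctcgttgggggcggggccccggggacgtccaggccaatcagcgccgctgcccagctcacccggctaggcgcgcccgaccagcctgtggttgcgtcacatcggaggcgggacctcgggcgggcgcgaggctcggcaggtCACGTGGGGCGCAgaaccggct
Slc7a11 held the letters TGATGNAA, a form of the composite element bound by ATF4 and C/EBP proteins, at 66 bases before the start as printed and again at 47 bases before it as the reverse complement. Slc20a1 held the E-box CACGTG at 175 and at 22 bases before its start, the latter followed directly by the metal response core TGCNCNC as the reverse complement, at 16 bases before the start. The Slc2a6 window held none of the motifs searched.

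Each motif was searched on both strands in 155 promoters listed for 112 of the members and in all 32851 promoters of the table. TGATGNAA was in 3.87% of member promoters and 3.45% of all, and among members in Slc7a11, Slc7a7, Slc9a9, Slc26a10 and Slc50a1. CACGTG was in 12.3% and 6.02%, and the antioxidant response core TGACNNNGC in 17.4% and 10.2%. The AP-1 letters TGACTCA were in 2.58% and 4.46%, and the metal response core TGCNCNC in 49% and 44.4%. Of 2 forms of the NF-kB consensus, 1 was in 1.94% and 1.41%, and among members in Slc37a4, Slc6a12 and Slc6a13, while the other was in no member promoter and 0.152% of all. A promoter can be listed more than 1 time for a gene, so these shares are descriptions of the letters and not of binding.

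Slc2a6 was the only member past the study's unadjusted threshold, a log2 fold change above 1 with p under 0.01, whereas no member passed its threshold on adjusted p. Over all 10779 genes tested, those averaging 1 FPKM or more, 1.88% were past the unadjusted threshold with higher values in cko and 0.408% with lower values, so 1 member of 145 higher and none lower is a share near or below the background. At an absolute log2 fold change of at least 1 and a Benjamini-Hochberg adjusted p under 0.05 (limma), 0% of all genes were called, and the smallest adjusted p of a member was 0.210. At an unadjusted p under 0.05, 17 members were higher in cko, 11.7% against 11.4% of all genes, and 4 were lower, 2.76% against 4.95%. Both cko libraries lay above both wt libraries for 58 members, 40% against 33.6% of all genes, and below both for 20 members, 13.8% against 18%, while the groups overlapped for 67. With 2 libraries against 2, an exact permutation test cannot give a p below 0.333.

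The median log2 fold change of the members, cko minus wt, was 0.16, against 0.09 over all genes tested. Against the wt mean, the members' median was 0.12 in cko library 1 and 0.16 in cko library 2. Both values use the same wt libraries. The share of all FPKM held by the members was 0.394% and 0.452% in wt and 0.539% and 0.559% in cko. The share of the most abundant genes given above moved the other way. When libraries were scaled by the median of gene ratios, the median of all genes was -0.01 and that of the members 0.06. The members at unadjusted p under 0.05 were then 10 higher and 8 lower, and those lying apart 38 higher and 29 lower, in place of 17 against 4 and 58 against 20. Of all genes, 7.63% were then higher and 7.93% lower at that p, and 24.6% and 25.8% lay apart. Quantile normalization gave 11 higher and 8 lower, with 39 and 30 lying apart. Its shares of all genes were 7.38% and 7.93%, with 23.4% and 26.6% lying apart. Rescaling after removal of erythroid and hepatocyte genes gave 30 higher and 1 lower, with 80 and 8 lying apart, and a median of 0.27 over all genes. The shares of all genes were then 21.9% and 1.82%, with 50.5% and 7.9% lying apart.

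**Figure D1:**
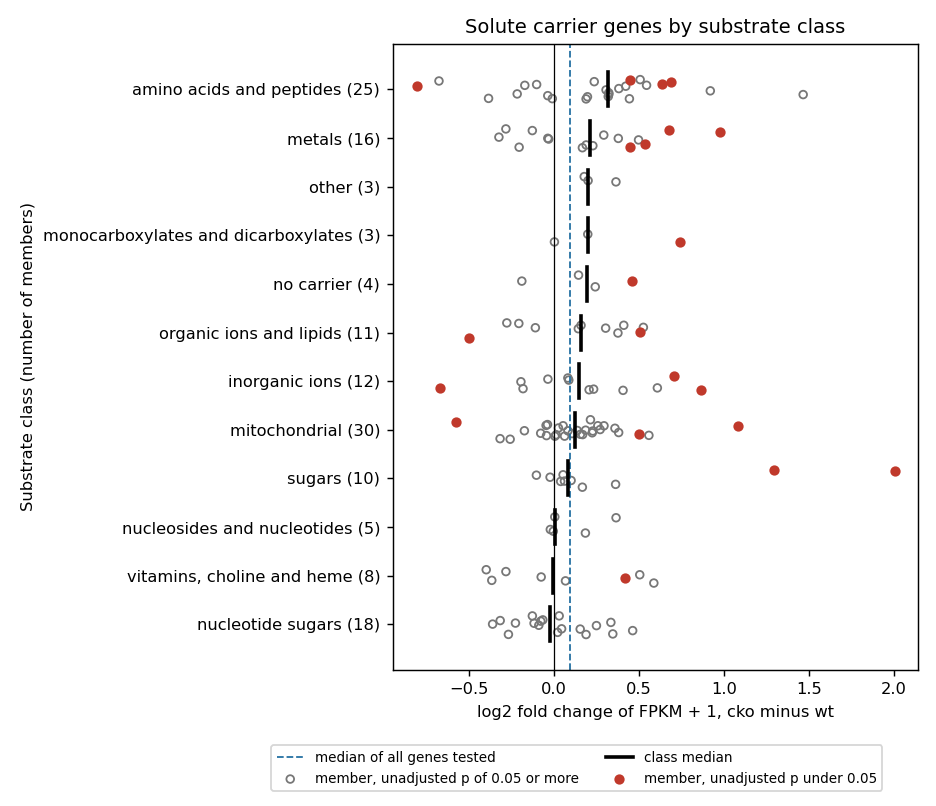
Log2 fold change of FPKM + 1, cko minus wt, of each of the 145 members (points) by substrate class, with the class median (black bar) and the median of all genes tested (dashed line at 0.09). Filled points have an unadjusted limma p under 0.05, and the amino acid class has the highest median at 0.32 while the nucleotide sugar class (all Slc35 members) lies around 0.

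By class, amino acid and peptide carriers had the highest median log2 fold change, 0.32, with 15 of 25 members higher in both cko libraries and 3 lower in both, beside 33.6% and 18% of all genes. At an unadjusted p under 0.05 (limma), 3 of the 25 were higher and 1 lower. These shares, 12% and 4%, were near the 11.4% and 4.95% of all genes. Metal carriers followed with a median of 0.21, 9 of 16 members higher and 3 lower. The 30 mitochondrial carriers had a median of 0.12, with 10 higher and 4 lower, and the 10 sugar carriers one of 0.08, with 4 higher and 0 lower. Inorganic ion carriers had a median of 0.15, which was 0.35 without cko library 1 and 0.03 under quantile normalization, and organic ion and lipid carriers one of 0.16, which was 0.33 without wt library 2 and -0.03 at a minimum mean of 5 FPKM. The 18 Slc35 genes, classed as nucleotide sugar carriers by family and not by the substrate of each, had a median of -0.02 (0.09 without wt library 2, -0.13 under median-of-ratios scaling and 0.17 after removal of erythroid and hepatocyte genes), with 3 higher, 4 lower and 0 at an unadjusted p under 0.05 in either direction. These medians describe the classes beside 0.09 for all genes, and no difference between classes was tested.

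Among sugar carriers, 2 of 10 genes, Slc2a6 and Slc2a1, were higher in cko at an unadjusted p under 0.05, beside 11.4% of all genes. Slc2a6 encodes GLUT6, a glucose carrier family member of lysosomal membranes in macrophages, and lies at chromosome 2, 27021363 to 27027998, minus strand. Its values were 7.08 and 5.92 FPKM in the wt libraries and 16.5 and 50.5 FPKM in the cko libraries. The groups did not overlap, but the cko libraries also lay far from each other. Its log2 fold change was 2.00 ± 0.49 (SE, n = 2 against 2), with an unadjusted p of 0.0078 and an adjusted p of 0.214 (limma). It was 1.22 when cko library 2 was left out and 2.78 when cko library 1 was left out. The call was lost without wt library 1 (unadjusted p of 0.036, limma) and without wt library 2 (unadjusted p of 0.051, limma), and also under median-of-ratios scaling, without a filter on low values and without the mean-variance trend.

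Slc2a1 encodes GLUT1, the glucose carrier of the plasma membrane, which red cell precursors also make. It stood at 38.7 and 19.7 FPKM in wt and at 47 and 102 FPKM in cko. All cko values were above the wt values, although cko library 1 exceeded wt library 1 by less than the wt libraries differed. The log2 fold change was 1.30 ± 0.45 (SE), with an unadjusted p of 0.032 and an adjusted p of 0.266 (limma). Without cko library 2 it was 0.74 (adjusted p = 0.585, limma), and without wt library 2 it was 0.83 (adjusted p = 0.539, limma).

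The remaining sugar carriers were at an unadjusted p of 0.05 or more. Slc2a3, which encodes GLUT3 and was the most abundant carrier of all, stood at 166 and 170 FPKM in wt and at 179 and 169 FPKM in cko, and its 95% confidence interval for the log2 fold change ran from -0.27 to 0.38. Per length, Slc2a3 was above Slc2a1 and Slc2a6 in every library. Slc37a4, which brings glucose 6-phosphate into the endoplasmic reticulum, stood at 7.67 and 8.76 FPKM in wt and at 9.84 and 8.82 FPKM in cko, a log2 fold change of 0.17. The log2 fold changes of the other 6 sugar carriers lay between -0.10 and 0.36.

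**Figure D2:**
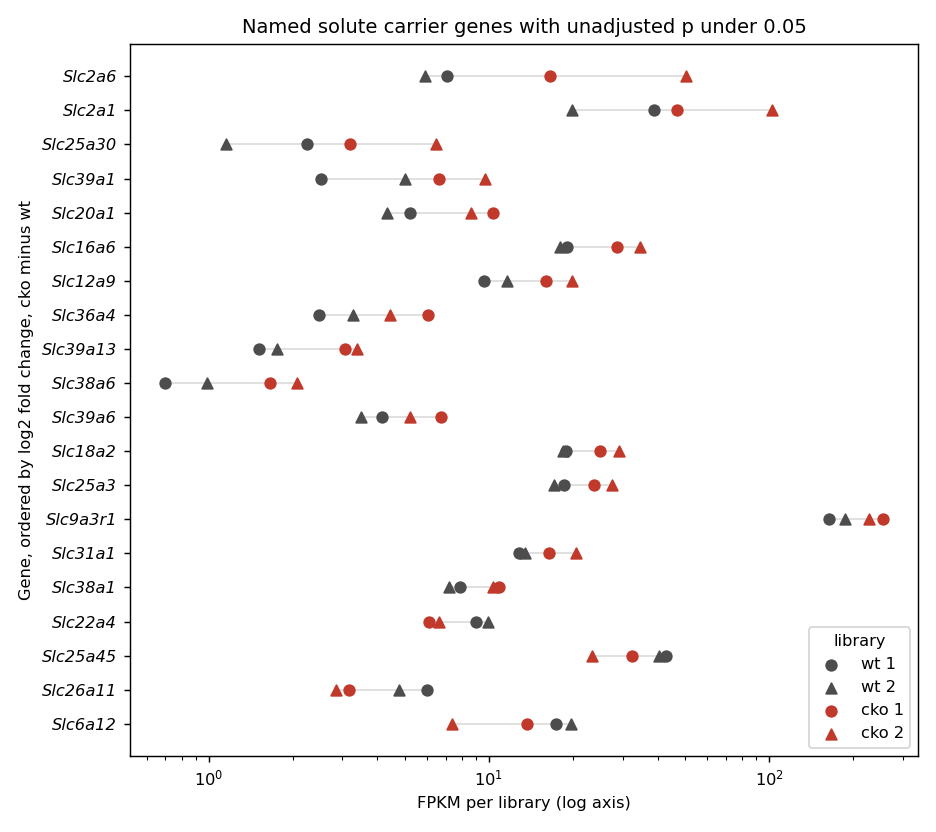
FPKM in each library (log axis) of the 20 named genes with an unadjusted limma p under 0.05, wt in grey and cko in red, with circles for library 1 and triangles for library 2 of a group. Slc2a6, Slc2a1 and Slc25a30 spread most between the cko libraries, while the values of Slc20a1 and Slc39a13 stay close within each group.

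Carriers of the lactate and ketone body family were measured as 3 genes, 1 of them higher at an unadjusted p under 0.05, beside 11.4% of all genes. Slc16a6, a monocarboxylate carrier family member, stood at 19 and 18 FPKM in wt and at 28.6 and 34.7 FPKM in cko, a log2 fold change of 0.74 ± 0.16 (SE) with an unadjusted p of 0.0046 and an adjusted p of 0.210 (limma). It kept an unadjusted p under 0.05 when any library was left out, with log2 fold changes between 0.61 and 0.88. Of its exons, 21.5% overlap Amz2 on the opposite strand, which stood at 3.51 to 5.21 FPKM. Since no source states that strand was used in counting, reads of overlapping genes cannot be told apart. The lactate exporter Slc16a3 stood at 87.7 and 99.9 FPKM in wt and at 93.3 and 124 FPKM in cko, and Slc16a1, which moves lactate in both directions, differed by a log2 fold change of 0.00.

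Among amino acid carriers, the cystine carrier Slc7a11 had the largest ratio of the cko mean to the wt mean, 8.3, and it rested on a single library. Slc7a11 is the light chain of the exchanger that imports cystine for glutathione synthesis, and stood at 0.689 and 0.496 FPKM in wt and at 0.947 and 8.89 FPKM in cko. In reads, these values were 213, 130, 247 and 2190. Only cko library 2 was far from the others, and cko library 1 lay just above wt library 1. The log2 fold change was 1.46 ± 0.74 (SE), with an unadjusted p of 0.098 (limma), and 0.29 without cko library 2.

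The heavy chain that Slc7a11 and the other light chains need, Slc3a2, stood at 16.2 and 16.5 FPKM in wt and at 17.4 and 28.2 FPKM in cko. It was likewise highest in cko library 2, with a log2 fold change of 0.42 ± 0.25 (SE) and an adjusted p of 0.433 (limma), and it was 0.09 without cko library 2 and 0.76 without cko library 1. Slc7a5, the light chain for leucine and other large neutral amino acids, stood at 1.6 and 1.88 FPKM in wt and at 2.17 and 2.68 FPKM in cko. The main glutamine carrier Slc1a5 was much more abundant, at 25.7 and 28.3 FPKM in wt and 26.7 and 25.8 FPKM in cko, with a 95% confidence interval for its log2 fold change from -0.40 to 0.32.

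The neutral amino acid carriers Slc38a1 and Slc38a2 are neighbours on chromosome 15, 44480 bases apart. Slc38a1 stood at 7.87 and 7.18 FPKM in wt and at 10.9 and 10.3 FPKM in cko, with tight values in each group and a log2 fold change of 0.45 ± 0.16 (SE, adjusted p = 0.268, limma). Its unadjusted p was 0.081 under median-of-ratios scaling and 0.085 under quantile normalization (limma). Slc38a2 stood at 17.5 and 13.1 FPKM in wt and at 19.1 and 19.2 FPKM in cko, with a log2 fold change of 0.32 and an adjusted p of 0.429 (limma). Slc36a4, a carrier of proline and tryptophan, had a log2 fold change of 0.69 with 2.47 and 3.27 FPKM in wt and 6.06 and 4.43 FPKM in cko. Slc38a6 had one of 0.64 from values between 0.700 and 2.07 FPKM. Their adjusted p were 0.254 and 0.301 (limma). The unadjusted p of Slc38a6 was 0.066 under median-of-ratios scaling and 0.087 under quantile normalization (limma).

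The lysosomal peptide and histidine carriers Slc15a3 and Slc15a4, which act beside the Toll-like receptors of endolysosomes, were both above wt in both cko libraries. Slc15a3 stood at 3.89 and 5.19 FPKM in wt and at 6.17 and 14.1 FPKM in cko, again highest in cko library 2, with a log2 fold change of 0.92 ± 0.37 (SE) and an adjusted p of 0.306 (limma), and 0.38 without cko library 2. Of its exons, 28.1% overlap Tmem132a on the opposite strand, which was below 1 FPKM in every library. Slc15a4 stood at 3.49 and 3.50 FPKM in wt and at 5.14 and 4.58 FPKM in cko, with a log2 fold change of 0.38 and an adjusted p of 0.351 (limma).

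The lowest log2 fold changes of all members were those of 2 adjacent carriers of betaine, taurine and GABA. Slc6a12, the betaine and GABA carrier, stood at 17.4 and 19.6 FPKM in wt and at 13.7 and 7.39 FPKM in cko, a log2 fold change of -0.81 ± 0.29 (SE) with an unadjusted p of 0.033 and an adjusted p of 0.269 (limma), and -0.40 without cko library 2. Slc6a13, which ends 5342 bases before it on the same strand of chromosome 6, stood at 3.44 and 2.34 FPKM in wt and at 1.80 and 1.07 FPKM in cko, a log2 fold change of -0.68 ± 0.27 (SE) with an adjusted p of 0.306 (limma). In both genes the lowest value was that of cko library 2 and the groups did not overlap. The taurine carrier Slc6a6 was instead higher in cko, at 14.8 and 16 FPKM in wt and 20.2 and 18.3 FPKM in cko, with a log2 fold change of 0.31 and an adjusted p of 0.374 (limma).

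Metal carriers showed 4 of 16 genes higher at an unadjusted p under 0.05 and 0 lower, against 11.4% and 4.95% of all genes. Of the 4, 3 were zinc importers of the Slc39 (ZIP) family, to which most of the class belongs. The remaining gene, Slc31a1, had an unadjusted p of 0.093 under median-of-ratios scaling and 0.081 under quantile normalization (limma). Slc39a6 had 0.082 and 0.087 under the same scalings (limma). Slc39a1, which brings zinc into the cytosol, stood at 2.51 and 5.01 FPKM in wt and at 6.66 and 9.68 FPKM in cko, a log2 fold change of 0.98 ± 0.32 (SE, adjusted p = 0.252, limma) that was 0.59 without wt library 1 and 1.36 without wt library 2. Slc39a13, which releases zinc from the Golgi apparatus, stood at 1.52 and 1.76 FPKM in wt and at 3.07 and 3.37 FPKM in cko, a log2 fold change of 0.68 ± 0.20 (SE, adjusted p = 0.237, limma). Of its exons, 4.42% overlap Psmc3 on the opposite strand, which stood at 55.0 to 59.9 FPKM, and reads of overlapping genes cannot be told apart. Slc39a6 stood at 4.14 and 3.50 FPKM in wt and at 6.76 and 5.23 FPKM in cko, a log2 fold change of 0.53 (adjusted p = 0.284, limma). For these 3 genes the groups did not overlap.

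The rest of the class varied in direction. Slc39a11 was its most abundant member, at 64.6 and 82.1 FPKM in wt and 77.5 and 57.1 FPKM in cko, and had overlapping groups. Slc39a8, the zinc and manganese importer of macrophages, stood at 3.45 and 3.03 FPKM in wt and at 2.80 and 2.54 FPKM in cko, below wt in both but with an adjusted p of 0.619 (limma). The log2 fold changes of the zinc exporters Slc30a5, Slc30a6, Slc30a7 and Slc30a9 lay between 0.17 and 0.38, with unadjusted p from 0.139 to 0.525 (limma). The cko libraries were above the wt libraries in each, as they were for 33.6% of all genes. The zinc-binding metallothionein Mt1 stood at 5.06 and 3.79 FPKM in wt and at 6.98 and 7.12 FPKM in cko, a log2 fold change of 0.58 (adjusted p = 0.254, limma), and the zinc sensor Mtf1 had one of -0.01. With members of at least 5 FPKM only, the median of the metal carriers was -0.04 rather than 0.21.

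The copper carriers, neighbours on chromosome 4 and 62315 bases apart, had log2 fold changes of opposite sign. Slc31a1, the copper importer of the plasma membrane, stood at 12.8 and 13.5 FPKM in wt and at 16.4 and 20.4 FPKM in cko, a log2 fold change of 0.45 ± 0.17 (SE, adjusted p = 0.286, limma). Slc31a2, a related carrier of endolysosomal membranes, stood at 72.1 and 75.2 FPKM in wt and at 56.7 and 60.5 FPKM in cko, a log2 fold change of -0.33 ± 0.13 (SE, adjusted p = 0.314, limma). Per length, Slc31a2 was above Slc31a1 in every library, and neither gene had overlapping groups. The difference between the 2 genes was not tested.

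**Figure D3:**
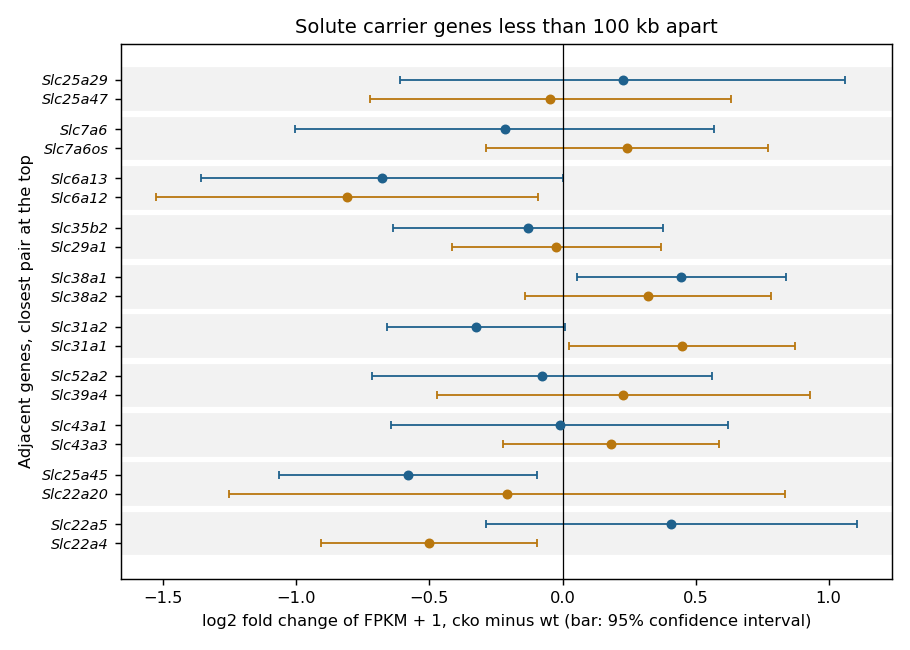
Log2 fold change of FPKM + 1, cko minus wt, with its 95% confidence interval, for the 10 pairs of members whose genes lie less than 100 kb apart, closest pair at the top. Slc6a13 and Slc6a12 both lie below 0, Slc38a1 and Slc38a2 above 0, and Slc31a2 and Slc31a1 on opposite sides of 0.

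Of the 10 pairs, 4 had log2 fold changes of the same sign and 6 of opposite sign. The other pairs of the same sign were Slc25a45 and Slc22a20, at -0.58 and -0.21, and Slc35b2 and Slc29a1, at -0.13 and -0.02. Of the pairs of opposite sign, Slc22a4, a carrier of ergothioneine, was at -0.50 on the log2 scale (8.98 and 9.91 FPKM in wt, 6.12 and 6.62 FPKM in cko, adjusted p = 0.251, limma), while the carnitine carrier Slc22a5, 91462 bases away, was at 0.41 with an adjusted p of 0.488 (limma). The mitochondrial carriers Slc25a29 and Slc25a47 are 162 bases apart on opposite strands and had log2 fold changes of 0.23 and -0.05.

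Mitochondrial carriers of the Slc25 family were the largest class, and 16 of 30 had overlapping groups. Both cko libraries lay above both wt libraries for 33.3% of the class and below for 13.3%, beside 33.6% and 18% of all genes. Slc25a3, the phosphate carrier that supplies ATP synthase, stood at 18.5 and 17 FPKM in wt and at 23.6 and 27.4 FPKM in cko, a log2 fold change of 0.50 ± 0.16 (SE) with an unadjusted p of 0.021 and an adjusted p of 0.246 (limma). The unadjusted p was 0.053 under median-of-ratios scaling and 0.038 under quantile normalization (limma). Slc25a30 stood at 2.24 and 1.15 FPKM in wt and at 3.19 and 6.46 FPKM in cko, with a log2 fold change of 1.08 ± 0.36 (SE, adjusted p = 0.254, limma) that was 0.67 (adjusted p = 0.575, limma) without cko library 2. Slc25a45 stood at 42.9 and 40.5 FPKM in wt and at 32.5 and 23.4 FPKM in cko, a log2 fold change of -0.58 ± 0.19 (SE, adjusted p = 0.257, limma) that was -0.35 without cko library 2 and -0.81 without cko library 1. These were the members of the class at an unadjusted p under 0.05, 2 higher and 1 lower of 30. The shares, 6.67% and 3.33%, were below those of all genes, 11.4% and 4.95%.

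The adenine nucleotide carriers, which exchange ADP for ATP, overlapped between the groups. Slc25a5 stood at 75.6 and 68.3 FPKM in wt and at 71.2 and 87.7 FPKM in cko, and Slc25a4 at 8.57 and 7.38 FPKM in wt and at 7.03 and 11.9 FPKM in cko. These close paralogues may share reads, so that the values of each are uncertain. Slc25a11 had a log2 fold change of 0.01 from 58.5 and 86.6 FPKM in wt and 74.2 and 69.4 FPKM in cko, and the carnitine carrier Slc25a20 one of 0.27 (adjusted p = 0.527, limma).

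Carriers that serve heme and iron-sulfur synthesis in mitochondria are given beside the erythroid markers, most of which were lower in the cko libraries. Slc25a37, the iron carrier mitoferrin 1 of red cell precursors, stood at 12.7 and 15 FPKM in wt and at 15.1 and 12.7 FPKM in cko, a log2 fold change of 0.00 with a 95% confidence interval from -0.43 to 0.44. Its counterpart of other tissues, Slc25a28, stood at 2.65 and 3.93 FPKM in wt and at 4.83 and 4.22 FPKM in cko, with a log2 fold change of 0.38 (adjusted p = 0.435, limma). Slc25a38, the glycine carrier that feeds heme synthesis, had a log2 fold change of 0.17 (adjusted p = 0.620, limma). Of the 14 erythroid markers tested, 10 lay below wt in both cko libraries (median -0.70 on the log2 scale) and 0 above, beside 18% and 33.6% of all genes. The part of red cell precursors in the values of these carriers was not tested.

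Carriers of inorganic ions held the member with the smallest unadjusted p. Slc20a1, the sodium-dependent phosphate importer at chromosome 2, 129198764 to 129211616, plus strand, stood at 5.24 and 4.31 FPKM in wt and at 10.3 and 8.66 FPKM in cko. The values of each group were close together and the cko mean was 1.99 times the wt mean. Its log2 fold change was 0.86 ± 0.19 (SE), with an unadjusted p of 0.0043 and an adjusted p of 0.210 (limma), and it was between 0.75 and 0.98 when any library was left out, with an unadjusted p under 0.05 each time.

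Slc12a9, a relative of the cation-chloride cotransporters, stood at 9.61 and 11.6 FPKM in wt and at 16 and 19.9 FPKM in cko, a log2 fold change of 0.70 ± 0.19 (SE, adjusted p = 0.214, limma). Slc18a2, the vesicular monoamine carrier that loads histamine and serotonin into granules, stood at 18.8 and 18.4 FPKM in wt and at 24.9 and 29 FPKM in cko, a log2 fold change of 0.51 ± 0.15 (SE, adjusted p = 0.237, limma). Slc26a11, an anion carrier, stood at 6.0 and 4.77 FPKM in wt and at 3.16 and 2.83 FPKM in cko, a log2 fold change of -0.67 ± 0.20 (SE, adjusted p = 0.230, limma). The scaffold gene Slc9a3r1 stood at 163 and 186 FPKM in wt and at 254 and 227 FPKM in cko, a log2 fold change of 0.46 (adjusted p = 0.251, limma). Its unadjusted p was 0.058 under median-of-ratios scaling and 0.079 under quantile normalization (limma). The groups did not overlap for any of these genes. The remaining member at an unadjusted p under 0.05 was the choline carrier-like gene Slc44a2, with a log2 fold change of 0.42 (adjusted p = 0.265, limma), which the rule for named genes did not choose. The nucleoside carrier Slc29a1 had a log2 fold change of -0.02.

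**Figure D4:**
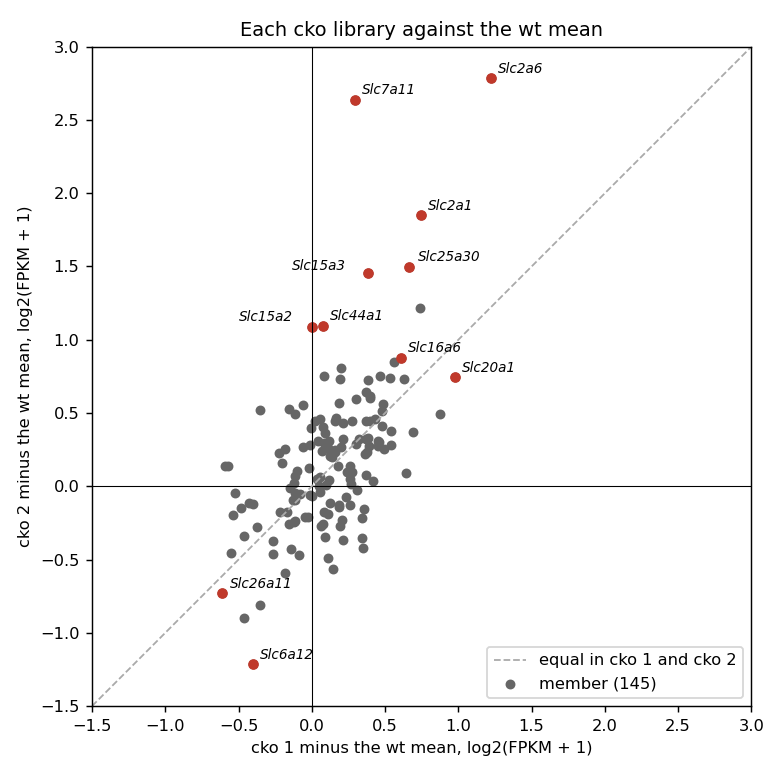
For each of the 145 members, the difference from the wt mean on the log2(FPKM + 1) scale in cko library 1 (horizontal axis) and cko library 2 (vertical axis), with a dashed line where both are equal. Both axes use the same wt libraries, and 6 members (labelled, with 5 further genes for orientation) lie more than 1 above cko library 1 in cko library 2, with Slc7a11 and Slc2a6 the farthest.

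The cko libraries differed from each other in a small set of members. Cko library 2 was above cko library 1 by more than 1 on the log2 scale for 6 members, Slc7a11 (2.34), Slc2a6 (1.56), Slc2a1 (1.11), Slc15a2 (1.09), Slc15a3 (1.07) and Slc44a1 (1.02), and below it by more than 1 for 0. Slc7a11 and Slc15a2 were below 1 FPKM in every other library, so they are members only through cko library 2. Between the wt libraries, 3 members differed by more than 1, 2 in which library 2 was higher and 1 in which it was lower. The shares of members past this difference, 4.14% in cko and 2.07% in wt, were below those of all genes, 4.65% and 3.66%. Of the 12 monocyte and macrophage markers, 8 were highest in cko library 2, 3 in wt library 1 and 1 in wt library 2. Csf1r stood at 40.9 and 33.0 FPKM in wt and at 45.6 and 113 FPKM in cko, Marco at 44 and 24.3 FPKM in wt and at 30.8 and 94.0 FPKM in cko, whereas C1qb stood at 109 and 73.7 FPKM in wt and at 69.4 and 93.0 FPKM in cko, Vsig4 at 23 and 14.1 FPKM in wt and at 13.3 and 17.7 FPKM in cko, and Ly6c2 at 343 and 360 FPKM in wt and at 333 and 315 FPKM in cko. The sum over the 12 monocyte and macrophage markers was 761 and 654 FPKM in wt and 646 and 880 FPKM in cko, and none of the 12 was at 0 in any library. In both cko libraries, 2 of 12 lay above wt and 1 below, beside 33.6% and 18% of all genes. The part of these markers in the values of Slc2a6, Slc7a11, Slc2a1 and Slc15a3 was not tested.

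Genes that work with the carriers give the setting of these values. Of 10 tested genes of glutathione metabolism and the Nrf2 response, 5 were above wt in both cko libraries and 2 below. The shares of all genes were 33.6% and 18%. At an unadjusted p under 0.05 (limma), 2 of the 10 were higher and 1 lower, beside 11.4% and 4.95% of all genes. Hmox1, which degrades heme, stood at 84.3 and 68.7 FPKM in wt and at 135 and 257 FPKM in cko, a log2 fold change of 1.28 ± 0.32 (SE, adjusted p = 0.214, limma), and was highest in cko library 2. The thioredoxin reductase gene Txnrd1 stood at 5.24 and 5.50 FPKM in wt and at 6.87 and 11.8 FPKM in cko, a log2 fold change of 0.66 (adjusted p = 0.304, limma). Gpx4, the glutathione peroxidase that reduces lipid peroxides, was lower in cko, at 77.7 and 72.3 FPKM in wt and 50.8 and 47.1 FPKM in cko, a log2 fold change of -0.61 ± 0.14 (SE, adjusted p = 0.212, limma). Nqo1 stood at 7.45 and 5.71 FPKM in wt and at 5.12 and 6.11 FPKM in cko, a log2 fold change of -0.19 (adjusted p = 0.657, limma). Prdx1 and Keap1 had log2 fold changes of -0.18 and -0.16, while 6 of the 10 genes were above 0. Of the glutamate-cysteine ligase subunits, Gclc was below the threshold of the fit and Gclm had a log2 fold change of 0.25 (adjusted p = 0.571, limma).

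Of 11 tested genes of the amino acid response, which ATF4 drives when amino acids are short, 3 were above wt in both cko libraries and 1 below. Over all genes, 33.6% lay above and 18% below. At an unadjusted p under 0.05 (limma), 1 of the 11 was higher and 1 lower, beside 11.4% and 4.95% of all genes. Atf4 itself stood at 156 and 153 FPKM in wt and at 158 and 187 FPKM in cko, a log2 fold change of 0.15 (adjusted p = 0.626, limma), and its target Asns had one of -0.08. Psat1, of serine synthesis, stood at 7.10 and 7.01 FPKM in wt and at 10.3 and 11.8 FPKM in cko, a log2 fold change of 0.58 (adjusted p = 0.226, limma). Trib3 stood at 2.27 and 2.50 FPKM in wt and at 0.778 and 0.825 FPKM in cko, a log2 fold change of -0.91 (adjusted p = 0.214, limma). Atf3 had the largest log2 fold change of the list, 1.08 (adjusted p = 0.367, limma). It stood at 8.49 and 5.11 FPKM in wt and at 8.40 and 26.5 FPKM in cko, with overlapping groups. Of the 11 genes, 5 had a log2 fold change above 0. Of 7 tested partners and carriers without an Slc symbol, the monocarboxylate carrier partner Emb was higher, with a log2 fold change of 0.43 (adjusted p = 0.279, limma), the mitochondrial pyruvate carrier subunit Mpc2 was lower, with one of -0.41 (adjusted p = 0.288, limma), and Bsg, the partner of Slc16a1 and Slc16a3, had one of 0.07.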

How the data were processed

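RNA-seq libraries of mouse myeloid cells, 2 wt and 2 cko by their titles, were sequenced on an Illumina instrument. The authors deposited 1 table of FPKM per library with Ensembl identifiers and positions for 24706 genes, and their methods call the unit RPKM. The submitters' processing notes name Bowtie2 2.2.3, TopHat2 2.0.12, HTSeq 0.6.0 and the build mm9, without their settings. Positions of 92.6% of rows, and of 128 of the 145 members, were identical to GENCODE M21 on GRCm38, so positions are given as in the files and belong to GRCm38 rather than mm9. FPKM values were whole multiples of 1 read (99.9% of single-exon values within 0.02 of a whole number), from which reads were recovered for all members, for 126 of them from the annotated exon length.

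Differences were fitted as log2(FPKM + 1) by the linear model of limma 3.58.1 under R 4.3.3, moderated by eBayes with a mean-variance trend (two-sided, no covariates), over 10779 genes averaging 1 FPKM or more, and p-values were Benjamini-Hochberg adjusted over these. Fold changes on this scale understate those of low genes. A count model was not used because FPKM are not counts, and voom was an alternative, run on the recovered reads of genes averaging 10 or more.

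Members, substrate classes, gene lists and tests were chosen with earlier results of these data known. Named genes were members past a log2 fold change above 1 and p under 0.01, up to 3 higher and 3 lower members at p under 0.05 with groups apart in the sugar, amino acid, metal and mitochondrial classes, up to 4 of each over the other classes, the 2 most abundant of each of these, and a fixed list of well known carriers. Genes of the lists beside the members, members that were adjacent to a named gene, the zinc exporters of the Slc30 family, and Slc6a6, Slc15a2, Slc25a29, Slc25a47, Slc44a1 and Slc44a2 were added after their values were seen. Markers of T cells (2 of 5 tested), B cells (4 of 5) and megakaryocytes (2 of 5) had median log2 fold changes of -0.68, -0.57 and -0.16, endothelial and stromal markers (6) one of -0.19, neutrophil markers (12) one of -0.15, monocyte and macrophage markers (12) one of 0.18, hepatocyte markers (10 of 15) one of -0.34 and pan-myeloid markers (8 of 9) one of 0.25. Promoters came from RefSeq. Python 3.11.15 and matplotlib 3.10.9 made the other tables and the figures.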

Additional observations from a re-analysis of the deposited data

How the results depend on the processing

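The count of members past a log2 fold change above 1 with p under 0.01, 1 in the limma fit, was 0 without a filter on low values, 0 under median-of-ratios scaling, 0 for eBayes without a trend, 2 after removal of erythroid and hepatocyte genes (Slc2a6 and Slc20a1) and 3 with voom (Slc2a6, Slc26a2 and Slc38a6), and 0 to 4 when a library was left out. It was 0 without wt library 1 and 4 without cko library 1, where Slc2a6, Slc7a11 (2.64) and Slc15a3 (1.45) were higher and Slc6a12 (-1.21) lower. The 21 members at p under 0.05 became fewer without wt library 1, wt library 2 or cko library 2. Without cko library 1 they were partly other members. Voom gave 25 higher and 6 lower at that p, beside 10.9% and 4.17% of all genes tested with it. No member passed the adjusted threshold under any alternative. At a minimum mean of 5 FPKM, both cko libraries lay above wt for 28 members and below for 11, beside 35.4% and 20% of all genes. The 78 members with groups apart became 39 of 76 at a minimum mean of 5 FPKM, and 107 to 120 with 3 libraries, where 1 value on a side makes the criterion looser (44.3% to 47.9% of all genes then lay above wt and 27.9% to 30.2% below).

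The replicate number as a block gave 13 members at p under 0.05, 9 higher and 4 lower, and 1 past a log2 fold change above 1 with p under 0.01. Of all genes, 8.42% were then higher and 3.15% lower at p under 0.05. Replicate differences in the 2 groups correlated at -0.16 over all genes, so the numbers were not taken to pair libraries. A crossed pairing, chosen after seeing the data, gave 24 at p under 0.05 and 3 past fold and p together. The 24 were 19 higher and 5 lower, beside 14.4% and 6.49% of all genes.

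The median log2 fold change of all members, 0.16, was 0.064 at a minimum mean of 5 FPKM, 0.059 under median-of-ratios scaling, 0.052 under quantile normalization, 0.34 after removal of erythroid and hepatocyte genes, and 0.10 to 0.18 when a library was left out. Under the same 3 scalings the median was 0.21, 0.19 and 0.48 for amino acid carriers, 0.12, 0.077 and 0.36 for metal carriers, 0.021, 0.016 and 0.31 for mitochondrial carriers, and -0.026 (quantile) and 0.26 (removal) for sugar carriers. Metal carriers also had 0.31 and 0.33 with pseudocounts of 0.1 and 0.01, -0.035 at a minimum of 5 FPKM and 0.34 with voom, and mitochondrial carriers 0.071 at that minimum. When a library was left out, amino acid carriers had 0.20 to 0.32, metal carriers 0.16 to 0.28, mitochondrial carriers 0.054 to 0.13 and sugar carriers 0.11 to 0.28.

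Of 676 values of the 43 named genes under alternatives, 665 kept their side of the threshold of fold and p together. This says little, because Slc2a6 was the only named gene past it in the limma fit. Slc2a6 itself fell short of it under median-of-ratios scaling, without a filter on low values and without the mean-variance trend. None of the called values changed sign, while 30 values of 11 uncalled genes did. With 2 libraries a group and 15 reads for the lowest member, differences of low members were hardly measurable. The causes of these dependencies were not tested.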
